A study of Homo sapiens with 11 samples.

Results

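The troponin subunit genes examined here were TNNI1, TNNI3, TNNT1, TNNT2 and TNNC1. They were taken by symbol from the deposited count table, which held all 5 of them among 19990 genes. The libraries came from cardiomyocytes derived at passage 63 from WTC11, a widely used and established line of human iPSCs (induced pluripotent stem cells). Every well of the 3 groups shared 1 differentiation with the GSK3 inhibitor CHIR99021 and the Wnt secretion inhibitor IWP2, followed by long-term culture in RPMI1640 with B27 and insulin. By their labels, which name no batch, the groups differed only in the day of collection. They comprised 4 wells for Day 30, 3 for Day 60 and 4 for Day 113. The model is therefore a single line and a single differentiation in a dish, p-values measure the spread between its wells, and the day of culture cannot be told apart from the day of collection. The purity check that preceded the time course stained for cardiac troponin T, the protein that TNNT2 encodes.

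Troponin is the calcium switch of the thin filament. Its C subunit binds calcium, its I subunit holds back the interaction of actin with myosin until calcium is bound, and its T subunit anchors the complex to tropomyosin. TNNI1 encodes the slow skeletal form of troponin I, which the fetal heart uses, and TNNI3 encodes the cardiac form that replaces it after birth. The cardiac form has an N-terminal extension that protein kinase A phosphorylates. TNNT2 encodes cardiac troponin T and TNNT1 the slow skeletal form, while TNNC1 encodes the troponin C of both cardiac and slow skeletal muscle, so it has no isoform to switch with in the heart.

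The genes lie in linked pairs, placed here by GENCODE release 29 on GRCh38, the build named as hg38 in the submitters' processing notes. TNNT1 (ENSG00000105048, chromosome 19, 55132794 to 55149354) and TNNI3 (ENSG00000129991, chromosome 19, 55151767 to 55157773) are both on the minus strand and 2412 bases apart. TNNT2 (ENSG00000118194, chromosome 1, 201359008 to 201377762) and TNNI1 (ENSG00000159173, chromosome 1, 201403768 to 201429866) are on the minus strand 26005 bases apart. TNNC1 (ENSG00000114854) stands alone on chromosome 3 (52451102 to 52454070, minus strand). Promoter sequences were at hand for 3 of the 5 genes, and they are shown because the linked neighbours TNNI3 and TNNT1 changed in opposite directions from Day 30 to Day 113, while TNNT2 rose. Each is the 250 bases before the RefSeq start site on GRCh38.p14, read 5′ to 3′ on the gene's own strand. TNNI3 is chr19:55157733-55157982, TNNT1 is chr19:55149207-55149456 and TNNT2 is chr1:201377681-201377930. Each GENCODE span above reaches further upstream than the RefSeq start site, so the bases nearest that site lie inside the annotated gene. Capitals mark matches, on either strand, to a GATA motif (AGATAA or AGATAG, and likewise TGATAA or TGATAG), the MCAT motif CATTCC, an E-box (CANNTG) or the TATA motif TATAAA.
TNNI3: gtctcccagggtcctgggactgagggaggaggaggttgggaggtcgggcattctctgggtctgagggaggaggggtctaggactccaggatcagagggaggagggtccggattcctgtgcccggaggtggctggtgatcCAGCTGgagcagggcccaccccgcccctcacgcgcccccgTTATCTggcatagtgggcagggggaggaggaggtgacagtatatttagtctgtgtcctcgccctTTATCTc
TNNT1: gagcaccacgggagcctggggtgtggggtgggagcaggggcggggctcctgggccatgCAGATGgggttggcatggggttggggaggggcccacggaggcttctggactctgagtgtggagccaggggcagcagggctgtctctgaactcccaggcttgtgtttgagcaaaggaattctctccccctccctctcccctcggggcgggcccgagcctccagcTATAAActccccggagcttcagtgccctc
TNNT2: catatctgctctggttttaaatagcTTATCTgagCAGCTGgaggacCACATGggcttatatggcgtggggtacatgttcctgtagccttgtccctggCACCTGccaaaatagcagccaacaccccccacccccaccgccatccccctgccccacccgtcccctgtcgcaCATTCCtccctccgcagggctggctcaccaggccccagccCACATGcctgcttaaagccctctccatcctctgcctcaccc

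The TNNI3 promoter held a GATA match (TTATCT, the minus-strand form) at -71 to -66 and another at -7 to -2, counted from the base before the start site as -1, and an E-box at -111 to -106. GATA factors are zinc-finger regulators of cardiac genes. At least 1 GATA match was found in 22.3% of 35116 promoter windows of the same length, and 2 or more in 4.96%. The TNNT1 promoter had a TATA match at -29 to -24 (10.7% of windows) and an E-box at -192 to -187. In the TNNT2 promoter there was a GATA match at -225 to -220, 4 E-boxes at -216 to -211, -204 to -199, -153 to -148 and -41 to -36, and an MCAT match at -81 to -76. MCAT elements are bound by TEAD factors in muscle promoters, and 11.9% of windows held one, while 61.8% held an E-box. The CArG motif of serum response factor (CC, then 6 bases that are each A or T, then GG) was in 1.16% of windows and in none of the 3 shown. No match overlapped another, and the matches are letters in a sequence, not measured binding.

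Depth was even enough for every troponin gene to be measured in every library. The smallest library held 24.1 M counts and the largest 34.5 M (M stands for 1000000). The lowest count of any of the 5 genes was 258, for TNNT1 in Day 113 replicate 4. Values below are counts per 1000000 counts (CPM) with TMM scaling, and tests are edgeR quasi-likelihood tests on all 19990 genes with Benjamini-Hochberg adjustment at 0.05. All 15 genes of a cardiomyocyte reference list that holds no troponin gene were detected, with a summed level of 38760 to 54870 CPM at Day 30, 47310 to 56090 at Day 60 and 42260 to 45300 at Day 113. Together the 5 troponin genes took 0.774% ± 0.0775 of all counts at Day 30 (SD, n = 4), 0.973% ± 0.054 at Day 60 (SD, n = 3) and 1.21% ± 0.263 at Day 113 (SD, n = 4). These are bulk libraries, so fewer cells of a type and less RNA per cell cannot be told apart.

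From Day 30 to Day 113, 4 of the 5 troponin genes rose (TNNI1, TNNI3, TNNT2 and TNNC1) and 1 fell (TNNT1). Of all genes tested, 34.5% passed the same test, 17.3% higher and 17.2% lower. The median log2 change of the 5 was 0.66, beside -0.02 over all genes tested. Between Day 30 and Day 60 only TNNI3 passed, and it was higher, where 10.3% of all genes passed, 4.39% higher and 5.91% lower. Between Day 60 and Day 113 TNNT2 rose and TNNT1 fell, where 24.0% of all genes passed, 12.9% higher and 11.1% lower. Values did not overlap between days for 3, 3 and 4 of the 5 genes in the first interval, the second interval and the whole course, beside 24.8%, 30.6% and 35.1% of all genes.

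**Figure D1:**
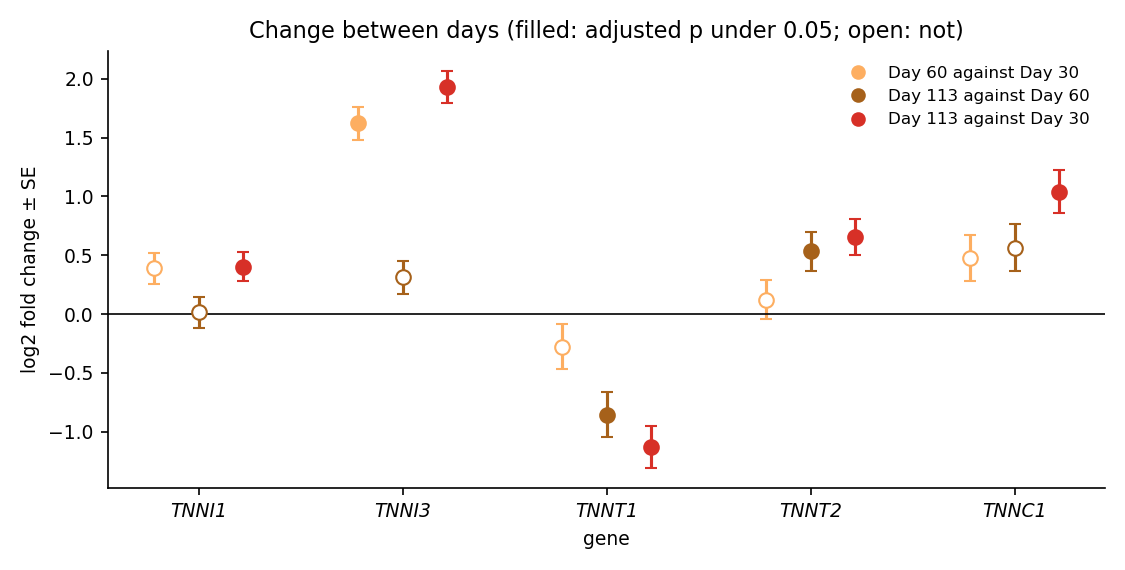
Log2 fold change with its standard error (y axis) of the 5 troponin genes (x axis) in the 3 comparisons of days, from edgeR; filled points passed an adjusted p-value of 0.05. TNNI3 passes between Day 30 and Day 60 (1.62), TNNT1 and TNNT2 pass between Day 60 and Day 113 (-0.85 and 0.53), and TNNI1 and TNNC1 pass only over the whole course (0.40 and 1.04).

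Of the inhibitory subunits, TNNI3 rose by Day 60. It stood at 84.3, 78.4, 66.1 and 83.5 CPM in the 4 Day 30 wells, at 236, 238 and 247 CPM at Day 60, and at 227, 384, 309 and 273 CPM at Day 113. Every Day 60 and Day 113 well lay above every Day 30 well, and the Day 60 values fell within the range of Day 113. Its log2 change was 1.62 ± 0.14 (SE) by Day 60, a 3.08-fold rise (edgeR adjusted p 5.8e-06), and 1.93 ± 0.14 by Day 113, a 3.82-fold rise (edgeR adjusted p 5.3e-08). The second interval gave 0.31 ± 0.14 (edgeR adjusted p 0.13), which passed without Day 113 replicate 1 (0.42, adjusted p 0.023, with 0.023 to 0.33 over all alternatives). TNNI3 was the member whose 2 intervals differed when the difference itself was tested (-1.31 ± 0.24, edgeR adjusted p 0.004), a test that 9.34% of all genes passed. That test compares the total change of each interval, and the 2 intervals are of unequal length. By rank within a library, TNNI3 moved from 2671 to 3452 among 19990 genes at Day 30 to 631 to 710 at Day 60 and 337 to 736 at Day 113.

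TNNI1 had 3732, 3751, 3641 and 4123 CPM at Day 30, 5036, 5019 and 4906 CPM at Day 60, and 3958, 6464, 4895 and 4836 CPM at Day 113. The Day 60 wells lay close together and above all Day 30 wells, while Day 113 spread from within the Day 30 range to well above Day 60. Over the whole course TNNI1 rose by 0.40 ± 0.12 on the log2 scale (1.32-fold, edgeR adjusted p 0.019), and this call did not hold without Day 30 replicate 1 (adjusted p 0.052) or without Day 30 replicate 3 (0.051), where all alternatives spanned 0.0021 to 0.052. Its first interval, 0.39 ± 0.13, did not pass (edgeR adjusted p 0.079). It did pass with only those 2 days in the fit (adjusted p 0.004), with DESeq2 (0.015) and without Day 113 replicate 1 (0.029) or replicate 2 (0.011), and the alternatives ran from 0.004 to 0.17. The second interval gave 0.01 ± 0.13 (edgeR adjusted p 0.95), a value so near 0 that its sign changed under other scalings. The mean level of the fetal form was thus higher at Day 113 than at Day 30, but the wells of these days overlapped. Without Day 113 replicate 2 the rise was 0.26 (edgeR adjusted p 0.036). TNNI1 ranked 5 to 13 among 19990 genes in all 11 libraries.

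Of the tropomyosin-binding subunits, TNNT2 rose and TNNT1 fell between Day 60 and Day 113. TNNT2 had 2881, 2577, 2260.0 and 3273 CPM at Day 30, 3206, 3236 and 2536 CPM at Day 60, and 3681, 5816, 3854 and 3985 CPM at Day 113. Days 30 and 60 overlapped, and all Day 113 wells lay above both. Its log2 change was 0.12 ± 0.16 in the first interval (edgeR adjusted p 0.74), 0.53 ± 0.17 in the second (edgeR adjusted p 0.028) and 0.66 ± 0.15 over the course (1.58-fold, edgeR adjusted p 0.0032). The second interval no longer passed without Day 60 replicate 1 (0.58, adjusted p 0.056), Day 60 replicate 3 (0.42, 0.15) or Day 113 replicate 2 (0.36, 0.056), with 0.0055 to 0.15 over all alternatives. TNNT2 is also the cell-purity marker named above, and a gene-level count does not separate its spliced forms, which differ between the fetal and the adult heart.

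TNNT1 had 26.5, 33.2, 33.0 and 31.3 CPM at Day 30, 24.9, 31.0 and 20.9 CPM at Day 60, and 11.6, 16.7, 17.9 and 10.3 CPM at Day 113. Every Day 113 well lay below every earlier well, and the earlier days overlapped. The log2 change was -0.28 ± 0.19 in the first interval (edgeR adjusted p 0.44), -0.85 ± 0.19 in the second (edgeR adjusted p 0.0041) and -1.13 ± 0.18 over the course, a 2.19-fold fall (edgeR adjusted p 0.00014). For neither T gene did the 2 intervals differ by the test of their difference (edgeR adjusted p 0.43 for TNNT2 and 0.31 for TNNT1). Both TNNT1 calls held in every alternative run, with adjusted p-values of 0.00018 to 0.027 and 1.7e-08 to 0.00075. No other annotated gene shares exon bases with TNNT1 or TNNC1. The exons of TNNI1 and TNNI3 overlap those of AC096677.3 and AC010327.1, which were not in the table. Those of TNNT2 overlap LAD1, a far less abundant gene whose mean went from 14.05 CPM at Day 30 to 7.47 CPM at Day 113.

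TNNC1, the calcium-binding subunit, rose over the whole course. It had 1074, 1107, 847 and 1433 CPM at Day 30, 1577, 1631 and 1446 CPM at Day 60, and 1673, 3317, 2179 and 2002 CPM at Day 113. The 3 days did not overlap, in the order Day 30, Day 60, Day 113. Over the whole course the log2 change was 1.04 ± 0.18, a 2.06-fold rise (edgeR adjusted p 0.00041, 6.8e-05 to 0.0023 over all alternatives). Neither interval passed by itself, at 0.48 ± 0.20 (edgeR adjusted p 0.15) and 0.56 ± 0.20 (edgeR adjusted p 0.051), and the test of their difference did not pass (0.09 ± 0.35, edgeR adjusted p 0.92). The first passed with only Days 30 and 60 in the fit (adjusted p 0.023) and without Day 113 replicate 2 (0.037), with 0.023 to 0.34 over all alternatives. The second passed without Day 30 replicate 3 (0.044) or 4 (0.04) and without Day 113 replicate 1 (0.013) or 4 (0.048), with 0.013 to 0.16.

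**Figure D2:**
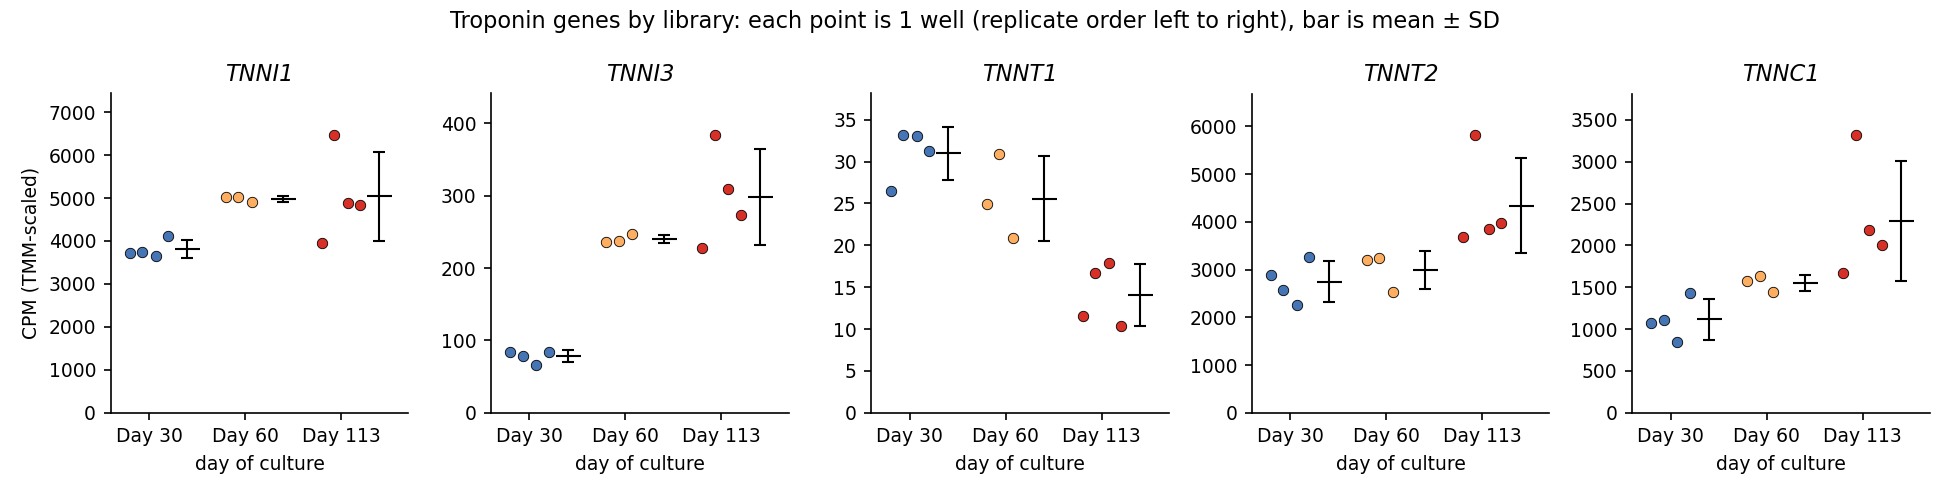
TMM-scaled CPM (y axes, linear from 0) of each troponin gene by day of culture (x axes), with 1 point for each well in replicate order and the mean ± SD beside it. All Day 60 wells lie above Day 30 for TNNI3, all Day 113 wells lie lowest for TNNT1, and Day 113 replicate 2 is the highest well of its day for 4 of the 5 genes.

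The wells of Day 113 were the most spread. The coefficient of variation there was 20.7% for TNNI1, 22.1% for TNNI3, 26.2% for TNNT1, 23.0% for TNNT2 and 31.2% for TNNC1, against 5.59%, 10.8%, 10.1%, 15.7% and 21.6% at Day 30. Replicate 2 was the highest well for TNNI1, TNNI3, TNNT2 and TNNC1, and replicate 1 was the lowest for the same 4 genes. Replicate 3 was highest and replicate 4 lowest for TNNT1. The Day 113 replicates 1 to 4 had summed fibroblast markers of 13100, 6791, 11310 and 5454 CPM and summed endothelial markers of 860, 366, 420 and 222 CPM. Replicate 1, lowest for 4 troponin genes, was thus highest for both marker lists, but replicate 4, lowest for both lists, was not the highest for any troponin gene. The summed cardiomyocyte reference list was 45300, 45170, 43840 and 42260 CPM in replicates 1 to 4. Replicate 1 was therefore also the highest, and replicate 4 the lowest, for the cardiomyocyte reference genes. The part of other cell types in the troponin spread was not tested.

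Markers of other cell types did move with the days. From Day 30 to Day 113, 34.5% of all genes tested passed, 17.3% higher and 17.2% lower. These shares are the measure for each marker count below. All 8 endothelial markers rose from Day 30 to Day 113 (summed level 77.2 to 110 CPM at Day 30, 49.7 to 80.3 at Day 60 and 222 to 860 at Day 113). Of 9 fibroblast markers, 5 rose and 2 fell (3357 to 7713, 2074 to 3575 and 5454 to 13100 CPM). Of the 5 smooth muscle markers analysed (of 6 listed), 3 rose (660 to 914, 726 to 882 and 931 to 1424 CPM). Of 8 endoderm and epithelial markers, 7 fell (873 to 1734, 426 to 561 and 81.8 to 215 CPM), and FOXA2 had 3 counts or fewer in each Day 60 library. No marker of these 4 lists was at 0 in every library of a day. Because TNNI1 and TNNT1 are slow skeletal forms, skeletal myogenic markers were also summed, and 2 of the 4 that were analysed (of 11 listed) rose. Their sums were 2.17 to 2.94, 2.73 to 5.93 and 2.28 to 6.42 CPM. The 2 that rose were MYOD1, the master regulator of skeletal myogenesis, and MYOG, each with 3 counts or fewer in every Day 30 library. MYOD1 was at 0 in every Day 30 library and averaged 0.272 and 0.525 CPM later. MYOG averaged 0.0363, 0.835 and 0.356 CPM, so both calls rest on few counts. The part of any of these 5 lists in the troponin changes was not tested.

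To set the genes against the muscle cells themselves, each was taken within a library relative to the mean log2 CPM of the 15 reference genes, which include ACTN2 (alpha-actinin), MYBPC3 (myosin-binding protein C), RYR2 (the calcium release channel) and the cardiac myosin heavy chains. By this measure TNNI3 was higher at Day 113 than at Day 30 by 2.02, TNNC1 by 1.13, TNNT2 by 0.75 and TNNI1 by 0.49 on the log2 scale, and TNNT1 differed by -1.03. Day 30 and Day 113 wells were fully separate for TNNI3, TNNC1, TNNT2 and TNNT1, each with a two-sided exact permutation p of 0.0286, the smallest that 4 wells against 4 allow. TNNI1 overlapped (exact permutation p 0.0571). After adjustment over the 27 ratio tests all 5 stood at 0.0812. With so few wells no adjusted value of this family could go below 0.0571, so missing 0.05 carries no information here or for the ratios below. Of the 15 reference genes, 1 rose and 3 fell, among them MYH7, from Day 30 to Day 113, where 34.5% of all genes passed. Their median log2 change was -0.03.

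**Figure D3:**
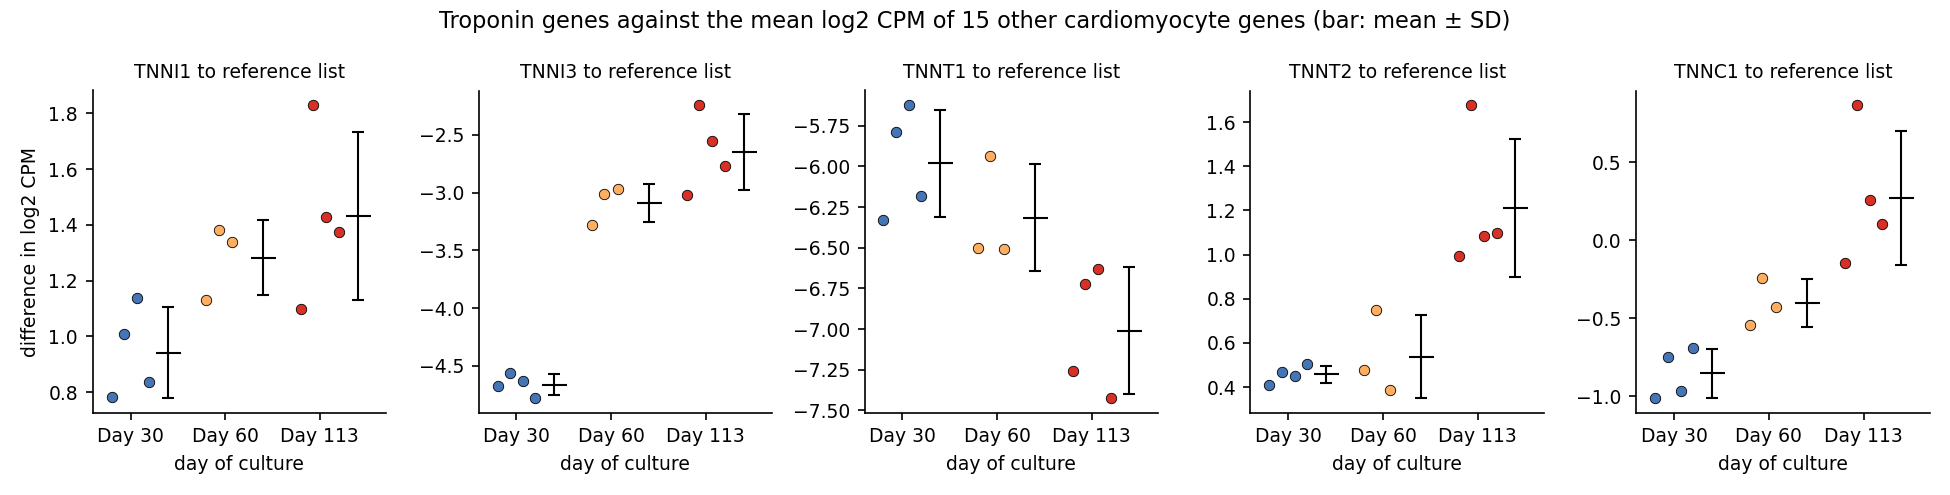
Difference in log2 CPM between each troponin gene and the mean of 15 other cardiomyocyte genes (y axes, scales differ between panels and do not start at 0) by day of culture (x axes), with 1 point for each well and the mean ± SD. TNNI3, TNNT2 and TNNC1 are higher and TNNT1 lower in every Day 113 well than in every Day 30 well, while TNNI1 overlaps.

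Within each subunit, the cardiac isoform made up a larger share at Day 113 than at Day 30. Levels of different genes were set side by side as CPM per kilobase, using the union of annotated exons (7524 bases for TNNI1, 2034 for TNNI3, 2171 for TNNT1, 7259 for TNNT2 and 1168 for TNNC1). Troponin I transcripts here are TNNI1 plus TNNI3, and troponin T transcripts are TNNT1 plus TNNT2. The fast skeletal forms TNNI2 and TNNT3 were left out of these sums. TNNI3 made up 7.71%, 7.18%, 6.29% and 6.97% of troponin I transcripts at Day 30, 14.8%, 14.9% and 15.7% at Day 60, and 17.5%, 18.0%, 18.9% and 17.3% at Day 113. The 3 days did not overlap, and TNNI1 remained the larger share in every library. The size of the share depended on the length used, at 11.2%, 23.0% and 26.8% on average with the longest transcript and 1.79%, 4.12% and 5.00% with the coding length. TNNT1 made up 3.71% ± 0.813 of troponin T transcripts at Day 30 (SD, n = 4), 2.77% ± 0.294 at Day 60 (SD, n = 3) and 1.09% ± 0.297 at Day 113 (SD, n = 4), so TNNT2 dominated from the first collection. With the other lengths the TNNT1 share went from 2.90% to 0.851% and from 1.22% to 0.354%.

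In log2 ratios of counts, where gene length cancels in a difference between days, TNNT1 to TNNT2 differed by -0.42 in the first interval, -1.39 in the second and -1.81 over the course. The last of these had an exact permutation p of 0.0286 and the second 0.0571, each the smallest possible, with an adjusted p of 0.0812 for both. The ratio of TNNI3 to TNNI1 differed by 1.24 and 0.29 in the 2 intervals and by 1.53 over the course (exact permutation p 0.0286, adjusted 0.0812). By these values the larger part of the difference lay after Day 60, in the longer interval, for the T isoforms and before Day 60 for the I isoforms. Whether the 2 ratios differ in timing was not tested.

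The subunits were also set against one another, with TNNC1 as the common partner. The log2 ratio of TNNI1 to TNNC1 was 1.80, 1.76, 2.10 and 1.52 at Day 30, 1.68, 1.62 and 1.76 at Day 60, and 1.24, 0.96, 1.17 and 1.27 at Day 113. Every Day 113 well lay below every earlier well, with a difference of -0.64 from Day 30 (exact permutation p 0.0286, adjusted 0.0812) and -0.53 from Day 60 (0.0571, adjusted 0.0812). TNNT2 to TNNC1 differed by -0.37 between Day 30 and Day 60 with no overlap (exact permutation p 0.0571, adjusted 0.0812). It averaged 0.94 at both later days. As CPM per kilobase of exon, troponin I transcripts per TNNC1 went from 0.586 ± 0.0957 (SD, n = 4) and 0.589 ± 0.0322 (SD, n = 3) to 0.424 ± 0.0383 (SD, n = 4). Troponin T transcripts per TNNC1 went from 0.416 ± 0.0364 to 0.318 ± 0.0248 and 0.314 ± 0.034 over the same days. The complex itself holds its subunits in equal numbers, and these values are RNA levels on 1 choice of gene length.

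**Figure D4:**
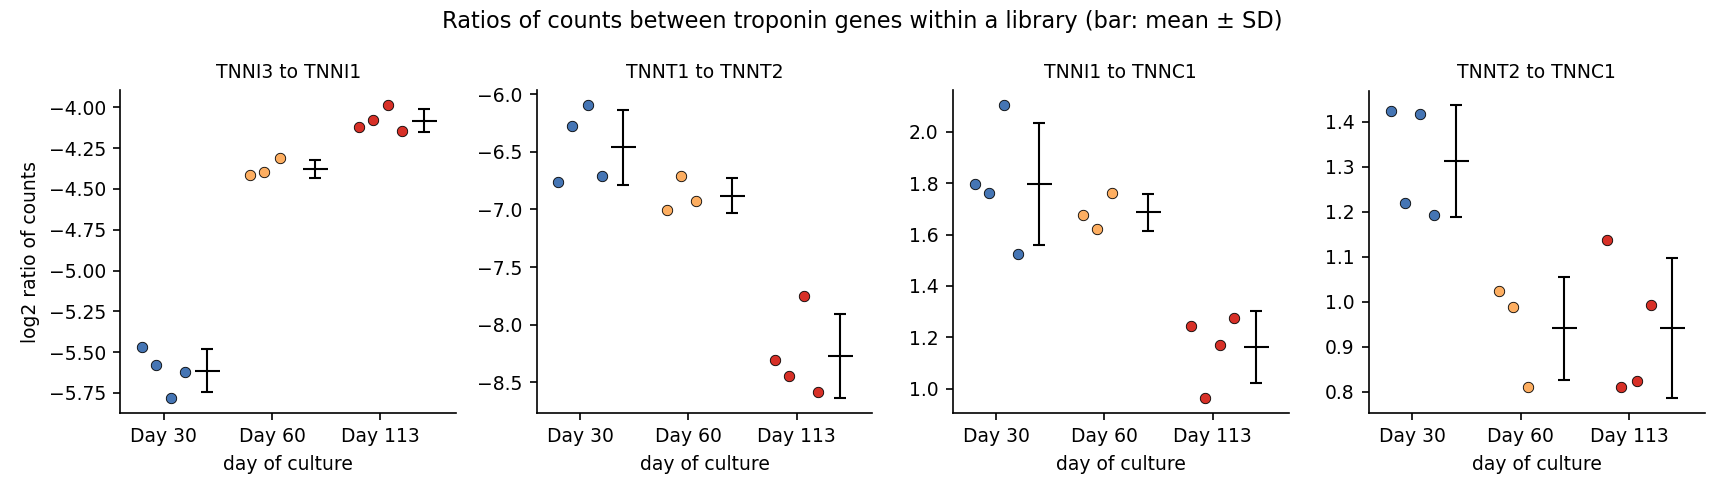
Log2 ratio of counts between pairs of troponin genes within a library (y axes, scales differ between panels) by day of culture (x axes), with 1 point for each well and the mean ± SD; the level of a ratio includes the genes' lengths, its change does not. TNNI3 to TNNI1 separates all 3 days, TNNT1 to TNNT2 and TNNI1 to TNNC1 set Day 113 below the earlier days, and TNNT2 to TNNC1 sets Day 30 above both later days.

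By level per exon length the order within a library was TNNC1, TNNI1, TNNT2, TNNI3 and TNNT1 in all 11 libraries. The last 2 places were the same under every length tried. The order of the first 3 was not, since TNNI1 came first in all libraries by coding length and after TNNC1 and TNNT2 by longest transcript. By exon length TNNI1 was above TNNT2 within every library. At Day 113 their levels per exon length (670 ± 139 for TNNI1 and 597 ± 137 for TNNT2, SD, n = 4 each) differed on average by less than either SD between wells. Those of TNNI3 (147 ± 32.5) and TNNT1 (6.51 ± 1.70) did not overlap.

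The fast skeletal troponins, which serve fast-twitch muscle, were at low levels on every day. TNNT3, fast troponin T, had 7.05 ± 2.29 CPM at Day 30 (SD, n = 4), 8.00 ± 2.05 CPM at Day 60 (SD, n = 3) and 1.01 ± 0.807 CPM at Day 113 (SD, n = 4). It fell by 2.78 ± 0.44 on the log2 scale from Day 30 to Day 113 (edgeR adjusted p 0.00017). From Day 60 to Day 113 it fell by 2.96 ± 0.46 (edgeR adjusted p 0.00033). Its 2 intervals differed by the test of their difference (edgeR adjusted p 0.015). TNNI2 and TNNC2, the fast forms of troponin I and C, stayed at or below 1.76 CPM in every library and were not called in any of the 3 comparisons. TNNT1 and TNNT3, the 2 skeletal T isoforms, were therefore both lower at Day 113.

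Thin filament partners share the filament with troponin, and 4 of 11 rose and 0 fell from Day 30 to Day 113 (median log2 change 0.25). Of all genes tested, 17.3% rose and 17.2% fell over the same days. LMOD3, a leiomodin that nucleates actin, rose by 1.50 ± 0.23 (edgeR adjusted p 0.00011). TPM2, beta-tropomyosin, rose by 0.76 ± 0.15 (edgeR adjusted p 0.001). TPM3 rose by 0.39 ± 0.13 (edgeR adjusted p 0.034), a call that ended without Day 30 replicate 1 or 4 or Day 113 replicate 1 (adjusted p 0.11 each) or without Day 113 replicate 2 (0.056), with 0.01 to 0.11 over all alternatives. It did not rise throughout. TPM3 fell by 0.54 ± 0.15 from Day 30 to Day 60 (edgeR adjusted p 0.027). It then rose by 0.93 ± 0.15 from Day 60 to Day 113 (edgeR adjusted p 0.00039). ACTC1, cardiac actin, went from 4251 to 5951 CPM without passing (edgeR adjusted p 0.057).

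Of 14 listed kinases and phosphatases that act on troponin or the proteins around it, 13 could be analysed, all but TNNI3K. Of the 13, 1 rose and 2 fell over the course (median -0.12). PRKG1, cGMP-dependent kinase, rose by 1.34 ± 0.25 (edgeR adjusted p 0.00061). PRKCA, a protein kinase C, fell by 0.44 ± 0.11 (edgeR adjusted p 0.0066). PAK1 fell by 0.43 ± 0.13 (edgeR adjusted p 0.02), which did not pass without Day 30 replicate 2 (adjusted p 0.08), Day 30 replicate 3 (0.065) or Day 113 replicate 1 (0.057), with 0.011 to 0.08 over all alternatives. PRKACA, the protein kinase A subunit that targets the TNNI3 extension, had 238, 233 and 220 CPM and was not called (edgeR adjusted p 0.40 over the course).

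Of 10 muscle splicing regulators, a family that governs the exons of troponin T among others, 1 rose and 2 fell (median -0.05). MBNL1 rose by 0.68 ± 0.10 (edgeR adjusted p 8.7e-05) while its relative MBNL2 fell by 0.58 ± 0.11 (edgeR adjusted p 0.00065). RBFOX2 fell by 0.73 ± 0.14 (edgeR adjusted p 0.001). Of 17 transcription regulators of troponin and other cardiac genes, 2 rose and 6 fell (median -0.13). SRF, which binds the CArG motif, rose by 0.90 ± 0.13 (edgeR adjusted p 7.7e-05), and the thyroid hormone receptor THRA rose by 0.51 ± 0.12 (edgeR adjusted p 0.003). ESRRG, an orphan nuclear receptor of oxidative metabolism, fell by 0.77 ± 0.12 (edgeR adjusted p 0.00014). GATA4, whose family binds the GATA motif, fell by 0.69 ± 0.10 (edgeR adjusted p 8.9e-05). HAND2 fell by 0.42 ± 0.14 (edgeR adjusted p 0.025), which did not pass without Day 30 replicate 1 (adjusted p 0.089), Day 30 replicate 4 (0.064), Day 113 replicate 1 (0.062) or 3 (0.053), with 0.0064 to 0.089 over all alternatives. The 34.5% of all genes that passed over the same course is the measure for each of these list counts.

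The genes closest in pattern to each troponin gene were ranked by the likeness of log2 CPM over the 11 libraries, among 11941 genes with a mean of at least 5 CPM. The value given is Pearson's r as a description, and the libraries share days and depth. TNNI3 ran closest to CRYAB (0.995), a small heat shock protein of muscle, DES (0.984), the muscle intermediate filament, and CAV3 (0.984), muscle caveolin. As the choice by likeness implies, their means follow those of TNNI3, with CRYAB at 321, 706 and 821 CPM, DES at 12.0, 32.6 and 44.5 CPM and CAV3 at 1.12, 5.91 and 9.17 CPM on the 3 days. TNNI1 ran closest to NDUFB9 (0.978), a complex I subunit, SPAG7 (0.975) and ATP5MG (0.965), a subunit of ATP synthase. TNNT1 was nearest to PTPRU (0.983), PCAT6 (0.968) and HUNK (0.967), whose means were all lowest at Day 113. TNNT2 was nearest to QTRT1 (0.983), RHEB (0.973) and POMT1 (0.969), and TNNC1 to PMF1 (0.975), ACYP2 (0.969) and HSPB3 (0.966), a small heat shock protein of muscle. By Spearman's rank measure only SPAG7 stayed among the 3 nearest, for TNNI1, so the other names depend on the measure.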

How the data were processed

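Poly(A) RNA of 11 wells was sequenced. Per the submitters' processing notes, the tools included STAR 2.5.3a and featureCounts 2.0.3 with hg38; the annotation and the strand setting are not given in the sources used here. The authors deposited whole-number read counts per gene symbol and a table of TPM values, which entered only a comparison of implied gene lengths. From the counts, edgeR 4.0.16 (glmQLFit, glmQLFTest; R 4.3.3) was fitted to all 11 libraries with day as the factor and TMM scaling (factors 0.966 to 1.04). The filterByExpr step (minimum count 10) removed no gene, and p-values were adjusted over 19990 genes. Standard errors are the absolute log2 change over the square root of F. Ratios used log2 with a pseudocount of 0.5, and exact permutation tests (scipy 1.17.1, 2 times the smaller tail) adjusted over 9 ratios and 3 pairs of days. With 3 wells against 4 these cannot go below 0.0571. Intervals from wells cover neither a second differentiation nor counting without molecular identifiers. The fit was checked on simulated data. Named genes are the 5 troponin genes, the 3 most alike to each, and up to 3 rises and 3 falls in each list around the complex from Day 30 to Day 113; ACTC1, PRKACA, MYOD1, MYOG and others of the lists are named for their levels. The members and lists were chosen with earlier results of these data known. Alternatives were RLE and upper-quartile scaling, other filters, DESeq2 1.42.0, limma-voom (limma 3.58.1), robust dispersions, a replicate block, 2 days only and leaving out each library.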

Additional observations from a re-analysis of the deposited data

Results flagged for a closer look

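In Day 113 replicate 2 the TNNT2 level of 5816 CPM stood apart from the other 3 wells of that day, which lay between 3681 and 3985 CPM. Its gap to the nearest well was 0.857 of the whole range, above the 95% critical value of Dixon's test for 4 samples. The same well stood apart for TNNT2 relative to the 15 reference genes, at 1.68 on the log2 scale against 0.99 to 1.10 in the others (gap 0.849 of the range). These were 2 of 28 groups of 4 wells examined, and chance flags about 1 in 20. Without this well the log2 change of TNNT2 from Day 30 to Day 113 was 0.48, and it still passed.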

How the results depend on the processing

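Of 395 values of the 5 troponin genes under the alternatives, 366 kept their direction and their side of the threshold, 13 changed sign, 11 gained a call and 5 lost one. The sign changes were for values near 0. TNNI1 between Day 60 and Day 113 was -0.0022 with RLE factors and with DESeq2, -0.051 with upper-quartile factors, -0.00088 with a mean CPM of at least 1, -0.012 with the replicate block and -0.0071 with limma-voom, and ran from -0.13 to 0.12 when 1 library was left out (below 0 without Day 60 replicate 3, -0.0062, or Day 113 replicate 2). The difference between intervals for TNNC1 was -0.018 with upper-quartile factors, -0.038 with the replicate block and -0.14 to 0.21 with 1 library left out, at -0.056 without Day 30 replicate 4 and -0.042 without Day 60 replicate 3, and lowest without Day 113 replicate 2. With only 2 days in the fit, the first interval passed for TNNI1 (0.41) and TNNC1 (0.49), and with DESeq2 for TNNI1 (0.40). With 1 library left out the ranges were 0.37 to 0.43 for TNNI1 and 0.37 to 0.62 for TNNC1 (Day 60 against Day 30), 0.17 to 0.42 for TNNI3, 0.36 to 0.61 for TNNT2 and 0.33 to 0.69 for TNNC1 (Day 113 against Day 60), and 0.26 to 0.50 for TNNI1 (Day 113 against Day 30). With 1 library left out, the count of genes called ran from 1220 to 2618 between Days 30 and 60 (1323 without Day 30 replicate 2, 1259 without Day 60 replicate 1, 1220 without Day 60 replicate 3) and from 643 to 2221 for the difference between intervals (643 and 774 without Day 60 replicates 1 and 3). Other alternatives also gave counts above these ranges (2 days only and DESeq2 for the first, DESeq2 and the replicate block for the second), all within 1.5 times the reported 2060 and 1868. TNNT2 to the reference list between Days 30 and 60 was -0.011 with MYL2 added to the list and -0.025 to 0.16 with 1 library left out, at the low end without Day 60 replicate 2. TNNT2 to TNNC1 between Days 60 and 113 ran from -0.066 to 0.044 with 1 library left out. The order of levels per exon length held in 0 libraries with either other length. The cause was not tested for any of these. Ratios were not tested with 1 library left out, since so few wells cannot reach 0.05 in an exact test. Same-numbered wells of different days correlated by 0.0348 to 0.139 in their deviations, and over 0.1 in 2 of 10 pairs. Of the 11 libraries, 9 correlated best with their own number on every other day that had a well of that number. Day 60 had no replicate 4, so the replicate 4 wells were compared with 1 other day only. Day 113 replicate 4 correlated by 0.122 with Day 60 replicate 3 and by 0.0946 with Day 30 replicate 4. Whether wells of a number share more than that number was not tested. The replicate block changed no call of a troponin gene. The largest shift of the median of all genes under another scaling was 0.105, for the difference between intervals with upper-quartile factors. At this depth TNNI2 had 0 counts in 1 library, so its values are imprecise.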

Other observations

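The deposited TPM values could not serve for levels per length. CPM divided by TPM should equal a gene's length times a factor common to all genes of a library, so its range between libraries should be alike for all genes. It was 84.1-fold for TNNI1, 30.3-fold for TNNI3, 17.7-fold for TNNT1, 65.7-fold for TNNT2 and 371-fold for TNNC1. The counts of the same genes differed far less, as the per-well values show, so every result above rests on counts.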
